A study of Mus musculus with 20 samples.

Results

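The AMPA receptor subunits are the 4 genes *Gria1*, *Gria2*, *Gria3* and *Gria4*, which encode GluA1 to GluA4. All their annotated transcripts were taken, 26 of the 113580 transcripts that could be placed on a gene, and their values were summed to 4 of 35580 genes. The RNA-seq libraries came from the hippocampus and the neocortex, labelled cerebral cortex, of male mice aged 13.5 months on a C57BL/6J background. In each tissue there were 5 wild-type (WT) samples and 5 samples from mice in which CRISPR/Cas9 had made a deletion at the *Mir324* locus (miR-324-null). Per the study's methods the founders were a mix of C57BL/6 and CBA/ca, were backcrossed, and gave the WT and the null line from crosses of heterozygotes, so each genotype is 1 line and both share that ancestry. The level of miR-324 itself was not analysed here, since libraries of polyadenylated RNA do not measure a mature microRNA. Estimated counts summed to between 12752439 and 19617765 per library, and those of single members lay between 711 (*Gria4*) and 15306 (*Gria1*). In 3 libraries, sample 3 of WT hippocampus, 5 of null hippocampus and 2 of null neocortex, 4 summed markers of the choroid plexus reached 4471, 3851 and 789 CPM (counts scaled to library size), beside at most 130 CPM in the other 17, and calls that ended without these libraries are named below.

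AMPA receptors are tetramers of these subunits that open when glutamate binds and carry most of the fast excitatory current at synapses of the brain. GluA1 is required for much of the long-term potentiation of hippocampal CA1 synapses. GluA2 keeps calcium out of the channel once its pore codon has been edited from glutamine to arginine by the enzyme ADAR2, encoded by *Adarb1*. GluA3 joins mainly GluA2, and GluA4 is best known from fast-spiking interneurons. Each gene also chooses between a pair of alternative exons, flip and flop, that shape how fast the receptor desensitises.

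The genes lie on 4 chromosomes of GRCm38. *Gria1* (ENSMUSG00000020524.16) spans 57011387 to 57330244 on the forward strand of chromosome 11, the chromosome that also carries *Mir324* at 70012043 to 70012131. *Gria2* (ENSMUSG00000033981.14) spans 80681450 to 80802835 on the reverse strand of chromosome 3. *Gria3* (ENSMUSG00000001986.16) spans 41400854 to 41678601 on the forward strand of the X chromosome, and *Gria4* (ENSMUSG00000025892.16) spans 4417896 to 4796234 on the reverse strand of chromosome 9.

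The flip and flop exons are shown because the transcript values below were divided by them. Each line gives 30 coding bases from inside the exon, from GENCODE M21 transcripts of GRCm38, with capitals where flip and flop of the same gene differ.
*Gria1* flip, chr11:57310624-57310653: gcGgtTttGaaactCaGTgagcaAggCGtC
*Gria1* flop, chr11:57309785-57309814: gcAgtGttAaaactGaACgagcaGggGCtT
*Gria2* flip, chr3:80690473-80690502: gcagtaTtGaaactCaGtgaGcaaggcGtC
*Gria2* flop, chr3:80691389-80691418: gcagtaCtAaaactGaAtgaAcaaggcCtG
*Gria3* flip, chrX:41669517-41669546: gcagtattGaaactCaGtgaAcaaggcAtc
*Gria3* flop, chrX:41654826-41654855: gcagtattAaaactGaAtgaGcaaggcCtc
*Gria4* flip, chr9:4427099-4427128: gcCgttttGaaactCaGtgaGGCaggcGtc
*Gria4* flop, chr9:4432842-4432871: gcAgttttAaaactGaAtgaACAaggcCtc
In this window flip and flop differed at 10 bases in *Gria1*, 7 in *Gria2*, 5 in *Gria3* and 8 in *Gria4*.

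The codon at which GluA2 is edited is shown for all 4 genes, in capitals, with the pore-loop bases around it as they stand in the genome.
*Gria1*, chr11:57243079-57243108: ctgggggccttcatgCAGcaaggatgtgac
*Gria2*, chr3:80706899-80706928: ttgggtgcctttatgCAGcaaggatgcgat
*Gria3*, chrX:41610250-41610279: ttgggtgcttttatgCAGcaaggatgtgat
*Gria4*, chr9:4464125-4464154: ctgggtgcctttatgCAAcaaggatgtgac
All 4 codons stand for glutamine in the genome. Editing itself cannot be read from the deposited values, which count transcripts and not bases.

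The mature arms of miR-324, from RefSeq on GRCm38, are shown with the seed (bases 2 to 8) in capitals, since a microRNA finds its targets mainly through it.
miR-324-5p, chr11:70012060-70012082: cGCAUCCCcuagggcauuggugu
miR-324-3p, chr11:70012095-70012114: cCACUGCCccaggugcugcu
The 7 letters that pair with each seed, GGGATGC for miR-324-5p and GGCAGTG for miR-324-3p, were searched on the transcript strand of the longest 3′UTR among the coding transcripts of each gene. These 3′UTRs held 2598 bases in *Gria1*, 7268 in *Gria2*, 2264 in *Gria3* and 2256 in *Gria4*, and 0 of the 4 held either motif. Of 5380 3′UTRs of at least 2000 bases in the genome, 17.6% held the miR-324-5p motif and 28.6% the miR-324-3p motif. The missing match says only that these letters are not in these windows.

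Levels of different genes were compared in TPM, a level corrected for transcript length and library size. In the hippocampus the order was *Gria1*, *Gria2*, *Gria3*, *Gria4* in both genotypes, and the ranges of neighbours in the order did not overlap. *Gria1* stood 468th and *Gria2* 747th of 35580 genes in WT hippocampus by mean TPM. In the neocortex *Gria2* came first, and the next 2 genes, *Gria1* and *Gria3*, overlapped in both genotypes. Their means in WT neocortex were 86.8 and 84.0 TPM, and *Gria1* was the higher in 4 of 5 samples. *Gria4* was lowest in all 20 samples.

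**Figure D1:**
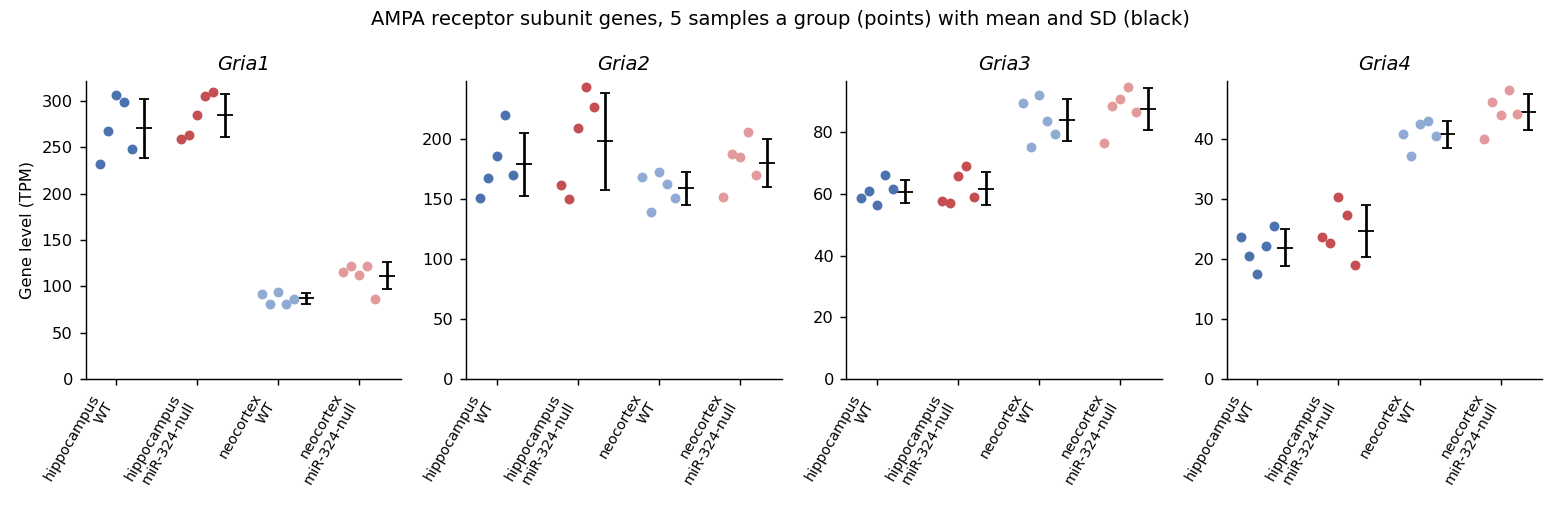
Level of each AMPA receptor subunit gene in TPM (vertical axes, from 0) in the 4 groups of 5 samples, with each sample as a point and the mean and SD in black. *Gria1* lies between 232 and 310 TPM in the hippocampus and between 80.9 and 122 TPM in the neocortex, while *Gria3* and *Gria4* lie higher in the neocortex and the ranges of *Gria2* overlap.

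The first comparison asked how the tissues differ within a genotype. In WT mice all 4 genes passed the test, against 36.1% of the 14894 genes tested, with *Gria1* and *Gria2* higher in the hippocampus (18.1% of genes) and *Gria3* and *Gria4* lower (18% of genes). In miR-324-null mice the same 4 genes passed in the same directions, against 27.4% of 15033 genes (13.8% higher and 13.6% lower). The tests were edgeR's quasi-likelihood test on counts, with Benjamini-Hochberg adjustment over all genes tested and a threshold of 0.05. In bulk tissue a lower level cannot be told apart from fewer cells that express the gene. The tissue labels were checked by markers. The 3 summed CA1 markers (*Wfs1*, *Fibcd1*, *Pou3f1*) lay between 273 and 394 CPM in the hippocampus and between 78.0 and 189 CPM in the neocortex, and the 5 summed markers of neocortical excitatory neurons between 202 and 266 CPM and between 509 and 764 CPM.

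*Gria1* differed most. Its level in WT hippocampus was 232, 268, 307, 298 and 248 TPM, and in WT neocortex 91.5, 81.2, 94.3, 80.9 and 86.2 TPM. In miR-324-null hippocampus it was 259, 263, 285, 305 and 310 TPM, and in null neocortex 114.9, 121, 112, 122 and 86.5 TPM. Every hippocampal sample was above every neocortical sample. The hippocampal level was 3.15-fold that of the neocortex in WT (log2 fold change 1.65 ± 0.06, SE, adjusted p = 1.25e-09) and 2.69-fold in null mice (1.43 ± 0.09, adjusted p = 6.04e-07).

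*Gria2* was the gene that varied least between tissues. Its level in WT hippocampus was 151, 168, 186, 220 and 170 TPM and in WT neocortex 169, 139, 173, 163 and 151 TPM. In null hippocampus it was 162, 150.4, 209, 243 and 227 TPM and in null neocortex 152, 188, 185, 207 and 170.1 TPM. The groups overlapped in both genotypes. The counts gave a higher hippocampal level in WT, by a log2 fold change of 0.19 ± 0.05 (SE, adjusted p = 0.0101), and in null mice, by 0.26 ± 0.08 (adjusted p = 0.0271). Neither call held when transcript length was added as an offset in edgeR (adjusted p = 0.0554 and 0.177). The null call was also lost without the 2 null libraries that were rich in choroid plexus markers (0.22, adjusted p = 0.103) and without any 1 of 4 null samples, number 4 or 5 of the hippocampus or 1 or 2 of the neocortex (adjusted p between 0.0515 and 0.0720).

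*Gria3* ran the other way. Its level in WT hippocampus was 58.8, 60.9, 56.4, 66.3 and 61.6 TPM and in WT neocortex 89.5, 75.4, 92.01, 83.7 and 79.4 TPM. In null hippocampus it was 57.6, 57.1, 65.9, 69.1 and 59.1 TPM and in null neocortex 76.5, 88.7, 90.7, 94.8 and 86.8 TPM. No hippocampal sample reached the lowest neocortical sample. The log2 fold change of hippocampus against neocortex was -0.44 ± 0.05 (SE, adjusted p = 6.85e-06) in WT and -0.43 ± 0.06 (adjusted p = 1.13e-04) in null mice.

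*Gria4*, the least abundant member, fell furthest from neocortex to hippocampus. Its level in WT hippocampus was 23.6, 20.5, 17.4, 22.2 and 25.6 TPM and in WT neocortex 40.8, 37.2, 42.5, 42.9 and 40.5 TPM. In null hippocampus it was 23.6, 22.7, 30.3, 27.3 and 19.1 TPM and in null neocortex 40.0, 46.2, 44.0, 48.1 and 44.1 TPM. These groups did not overlap either. The neocortical level was 1.81-fold that of the hippocampus in WT (log2 fold change of hippocampus against neocortex -0.85 ± 0.09, SE, adjusted p = 7.46e-06) and 1.68-fold in null mice (-0.75 ± 0.10, adjusted p = 9.74e-05). Between tissues, 3 of the 4 genes (all but *Gria2*) had TPM ranges that did not overlap in either genotype, against 19.8% of genes tested in WT and 16.4% in null mice.

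**Figure D2:**
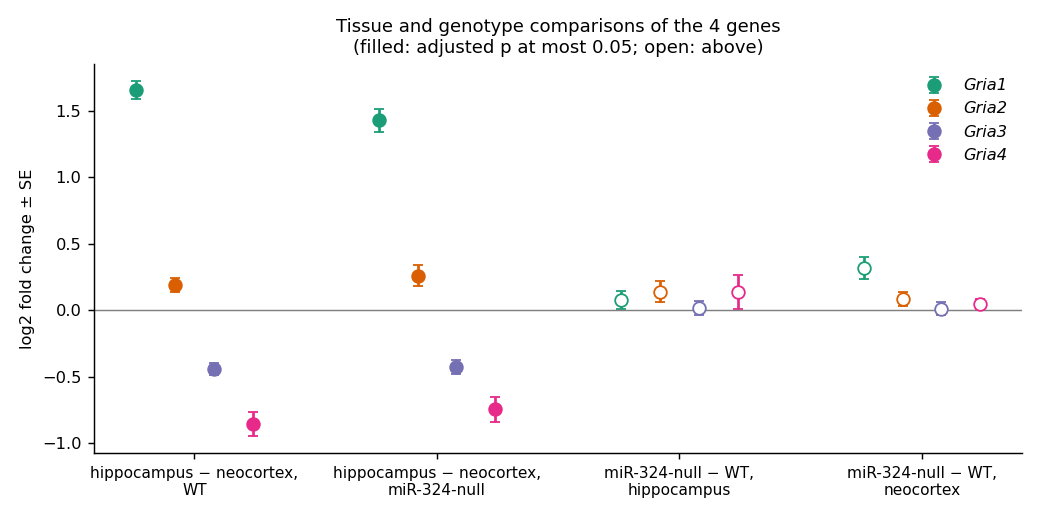
Log2 fold change ± SE of the 4 genes from edgeR (vertical axis) in the tissue and genotype comparisons (horizontal axis), with filled points where the adjusted p was at most 0.05. The tissue comparisons show *Gria1* at 1.65 and 1.43 and *Gria4* at -0.85 and -0.75, while all genotype points are open and *Gria1* in the neocortex, at 0.32, is the farthest of them from 0.

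The same values can be read as the make-up of the AMPA receptor mRNA pool. The 4 genes summed to 532 ± 55.2 TPM in WT hippocampus, 569 ± 68.2 in null hippocampus, 371 ± 27.2 in WT neocortex and 423 ± 37.6 in null neocortex (SD, n = 5 each). *Gria1* made up 50.8% of this sum in WT hippocampus and 23.4% in WT neocortex. *Gria3* made up 11.5% and 22.6%, and *Gria4* 4.17% and 11.02%. Null mice had a like order of shares in each tissue.

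The share of *Gria2*, the subunit whose edited form blocks calcium, was tested on its own. It was 32.5, 32.5, 32.8, 36.3 and 33.7% in WT hippocampus and 43.2, 41.8, 43.1, 44.0 and 42.4% in WT neocortex. In null mice it was 32.3, 30.5, 35.4, 37.7 and 36.9% in the hippocampus and 39.7, 42.3, 42.9, 43.8 and 43.9% in the neocortex. No hippocampal share reached a neocortical one. The difference of hippocampus less neocortex was -9.33 percentage points in WT and -7.95 in null mice, each with the smallest p that 5 against 5 samples allow (two-sided exact permutation test, p = 0.00794). Adjusted over the 20 exact tests made, both came to 0.0794 and missed the threshold. At this smallest p they could not have passed unless more of the 20 tests had low p-values. The miss therefore says nothing about the size of the differences. Between genotypes the share differed by 1.01 points in the hippocampus (exact permutation test, p = 0.524) and by -0.37 in the neocortex (p = 0.730), less than the spread of the samples.

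**Figure D3:**
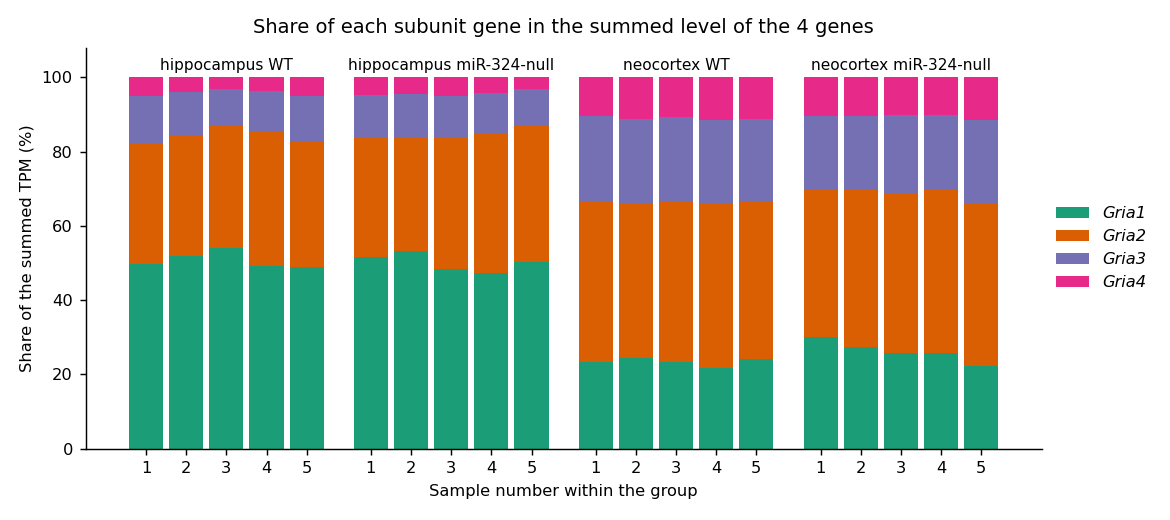
Share of each gene in the summed TPM of the 4 genes (vertical axis, percent) in each of the 20 samples, grouped by tissue and genotype. *Gria1* takes between 47.3% and 54.1% in the hippocampus and between 21.8% and 29.96% in the neocortex, with larger neocortical shares of the other 3 genes.

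The second comparison asked whether the loss of miR-324 changed the subunits in either tissue. It used the same 4 groups of samples as the tissue comparisons, so their values are not independent. In the hippocampus 0 of 4 genes passed, against 0.115% of the 14796 genes tested, and 0 had an unadjusted p under 0.05 in edgeR (11.1% of genes) or passed in DESeq2. The log2 fold changes of null against WT were 0.08 ± 0.07 for *Gria1* (adjusted p = 0.728), 0.14 ± 0.08 for *Gria2* (adjusted p = 0.529), 0.01 ± 0.05 for *Gria3* (adjusted p = 0.954) and 0.13 ± 0.13 for *Gria4* (adjusted p = 0.741). The groups overlapped for each member, while 1.64% of genes had groups that did not.

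In the neocortex 0 of 4 genes passed in edgeR, against 0.315% of 14930 genes, with 1, *Gria1*, at an unadjusted p under 0.05 (12.2% of genes). Its mean was 86.8 ± 6.01 TPM in WT and 111 ± 14.4 in null mice (SD, n = 5), a log2 fold change of 0.32 ± 0.08 (SE, adjusted p = 0.152). DESeq2 on the same counts did call it (log2 fold change 0.31, adjusted p = 0.0236), but how many of all genes DESeq2 called is not given here. Null samples 1 to 4 lay between 112 and 122 TPM, above all 5 WT samples, which lay between 80.9 and 94.3 TPM. Null sample 5, at 86.5 TPM, lay among the WT samples, and without it edgeR called *Gria1* (0.40, adjusted p = 0.00185). The other genes had log2 fold changes of 0.08 ± 0.05 (*Gria2*, adjusted p = 0.552), 0.01 ± 0.05 (*Gria3*, adjusted p = 0.948) and 0.04 ± 0.04 (*Gria4*, adjusted p = 0.737). As in the hippocampus, no member had groups that did not overlap, against 1.75% of genes.

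Markers of other brain regions and cell types were set beside *Gria1* in the neocortex samples, and some lists followed its pattern while others did not. The summed CA1 markers were 189, 133, 153 and 162 CPM in null samples 1 to 4 and 93.7 CPM in null sample 5, and lay between 78.0 and 114.7 CPM in WT. The 5 summed interneuron markers were 758, 814, 791 and 741 CPM in null samples 1 to 4 and 706 CPM in null sample 5, and lay between 672 and 715 CPM in WT. In both lists null samples 1 to 4 lay above all WT samples and null sample 5 lay among them, as for *Gria1*. The 5 markers of neocortical excitatory neurons ran the other way, at 539, 509, 575 and 607 CPM in null samples 1 to 4, 764 CPM in null sample 5 and 645 to 718 CPM in WT. Of the single genes, 2 of 3 CA1, 3 of 5 interneuron and 0 of 5 neocortical markers had a positive log2 fold change of null against WT. The CA1 marker *Pou3f1* lay between 17.4 and 22.0 CPM in WT and between 14.0 and 24.8 CPM in null samples, and *Wfs1* overlapped too.

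Other lists had another order of samples. Summed CA3 markers lay between 74.1 and 88.3 CPM in WT and between 88.5 and 107 CPM in null samples, without overlap, so that null sample 5 (88.5 CPM) lay outside the WT range. Each CA3 marker overlapped on its own, and 1 of the 2 tested had a positive log2 fold change. *Cpne4* lay between 39.8 and 55.7 CPM in WT and between 53.1 and 75.7 CPM in null samples, and *Bok* between 23.5 and 41.8 CPM and between 25.5 and 35.2 CPM. Dentate gyrus markers (3 genes) were 46.7, 35.98 and 30.7 CPM in null samples 1, 2 and 4, above the WT range of 17.7 to 23.7 CPM, and 22.0 and 20.8 CPM in null samples 3 and 5, inside it. Striatal markers (6 genes) were highest in null samples 3 (509 CPM) and 4 (344 CPM), then in WT sample 2 (331 CPM), where *Gria1* was at 81.2 TPM. Null samples 1, 2 and 5 (283, 216 and 206 CPM) lay below that WT sample. They lay above WT samples 1, 3, 4 and 5 (129, 170, 132 and 121 CPM). Summed thalamus markers overlapped, at 85.1 to 105.6 CPM in WT and 80.0 to 100.5 CPM in null samples. A positive log2 fold change of null against WT was found for 3 of 3 dentate gyrus, 6 of 6 striatal and 2 of 3 thalamus markers.

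None of the 55 markers was at 0 in every sample of a group. In edgeR 0 of the markers of these lists passed for genotype in the neocortex, with 2 of 3 CA1, 2 of 5 interneuron, 2 of 5 neocortical, 1 of 2 tested CA3, 2 of 3 dentate gyrus, 6 of 6 striatal and 1 of 3 thalamus markers at an unadjusted p under 0.05. Of all genes tested, 0.315% passed and 12.2% had such an unadjusted p. DESeq2, which called *Gria1*, called 4 markers, all higher in null mice, the CA1 marker *Fibcd1* (log2 fold change 1.16, adjusted p = 6.03e-04), the CA3 marker *Cpne4* (0.42, adjusted p = 0.00821), the thalamus marker *Prkcd* (0.72, adjusted p = 0.0283) and the dentate gyrus marker *Prox1* (0.46, adjusted p = 0.0307). *Gad1*, an interneuron marker picked after its values were seen, lay between 287 and 317 CPM in WT and between 318 and 432 CPM in null samples. The other interneuron markers, *Gad2*, *Sst*, *Pvalb* and *Vip*, overlapped between the genotypes. Over all genes tested, 1.75% had TPM groups that did not overlap. The share of all genes that DESeq2 called is not given here. The part of these markers in the *Gria1* difference was not tested.

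**Figure D4:**
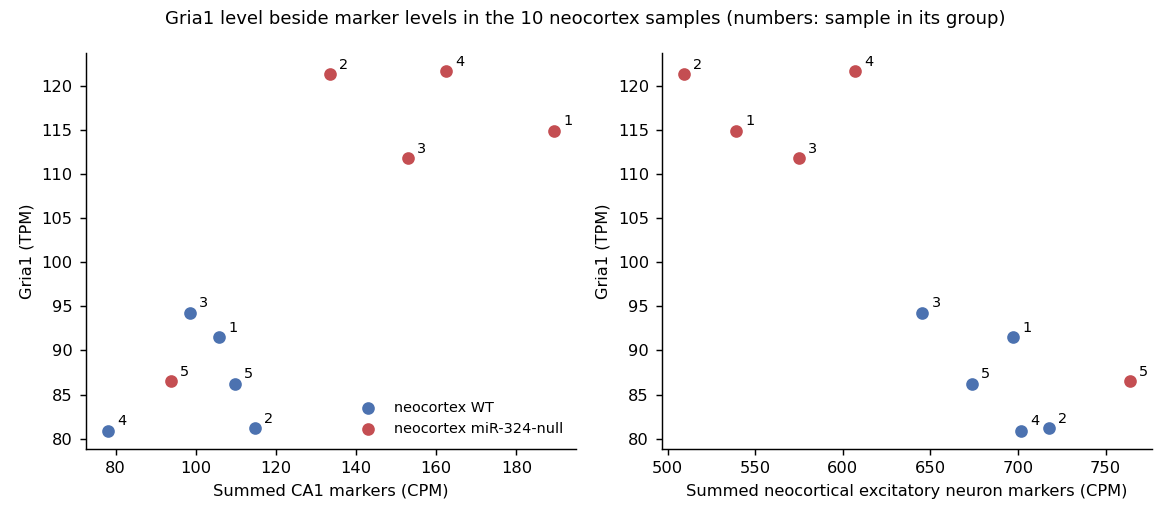
*Gria1* level in TPM (vertical axes) against summed CA1 markers (left, CPM) and summed markers of neocortical excitatory neurons (right, CPM) in the 10 neocortex samples, numbered within their group. Null samples 1 to 4 stand apart at 112 to 122 TPM with 133 to 189 CPM of CA1 markers, and null sample 5 lies among the WT samples on *Gria1* and CA1 markers.

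The genotype differences of the tissues were also set against each other in a fit of all 20 samples. No member passed this interaction test in edgeR, against 0.0195% of 15391 genes, 1 (*Gria1*) had an unadjusted p under 0.05 (5.57% of genes), and DESeq2 called 0. For *Gria1* the genotype difference was 0.24 ± 0.11 lower on the log2 scale in the hippocampus than in the neocortex (adjusted p = 0.880 in edgeR). For the other members the differences lay between 0.01 and 0.10.

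The transcripts showed how each gene's sum was made up. Of the 26 transcripts, 22 were above 0 in at least 1 sample and 17 in all 20 samples. Those at 0 throughout were *Gria1-205*, *Gria2-207*, *Gria2-208* and *Gria3-203*. A transcript was classed as flip, flop, both or neither by which of these alternative exons its annotated exons held, whether or not they were coding. Reads that lie outside the distinguishing exons are shared out by kallisto, so single transcripts are less certain than gene sums.

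*Gria1* was mostly flop. Its only flop transcript, *Gria1-202*, held 177 ± 25.2 TPM in WT hippocampus and 53.5 ± 3.61 in WT neocortex (SD, n = 5). The flip transcripts *Gria1-201* and *Gria1-204*, which differ at their first exons, made up 34.6 ± 2.18% of flip plus flop in WT hippocampus and 38.3 ± 3.26% in WT neocortex. In null mice the flip share was 35.9 ± 3.62% and 39.8 ± 2.15%. None of the 4 comparisons of this share passed (exact permutation tests, p between 0.0635 and 0.476).

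The 2 flip transcripts of *Gria1* were split unevenly between samples. *Gria1-204* was 10.6, 0.00091, 1.07, 0.034 and 18.4 TPM in WT hippocampus and 50.5, 32.9, 0.33, 0.017 and 0.0062 TPM in null hippocampus. *Gria1-201* was 69.8, 92.2, 98.7, 97.2 and 75.9 TPM in the same WT samples and 51.3, 66.7, 87.9, 116 and 103 TPM in the same null samples. Samples high in one were low in the other, and their sum stayed between 80.4 and 99.8 TPM in WT and between 88.2 and 116 TPM in null hippocampus. The SD over samples was 13.1 TPM (WT) and 26.4 TPM (null) for *Gria1-201*, and 7.50 and 10.1 TPM for the sum.

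*Gria2* was mostly flip on the TPM scale. *Gria2-202* (flip) held 105 ± 18.5 TPM and *Gria2-201* (flop) 45.0 ± 1.79 TPM in WT hippocampus. The flip share was 69.6 ± 3.96% in WT hippocampus, 68.7 ± 5.70% in null hippocampus, 68.0 ± 2.72% in WT neocortex and 70.8 ± 2.59% in null neocortex. No comparison passed (exact permutation tests, p between 0.127 and 0.770). The annotation ties the flop exon to a 3′UTR of 7268 bases and the flip exon to one of 923 bases, so choice of exon and choice of 3′ end cannot be told apart for this gene. In estimated counts, which are not divided by length, the flip share was between 44.5% and 47.7% in the 4 groups.

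The flip share of *Gria4* had a higher mean in the hippocampus in both genotypes, but did not pass. It was 32.1, 36.5, 45.8, 41.7 and 46.5% in WT hippocampus and 30.8, 35.7, 28.4, 29.3 and 25.4% in WT neocortex. In null mice it was 38.7, 45.8, 29.04, 50.3 and 33.6% in the hippocampus and 26.6, 34.2, 28.1, 28.3 and 26.0% in the neocortex. The groups overlapped in both genotypes. The difference was 10.6 points in WT (exact permutation test, p = 0.0159) and 10.8 points in null mice (p = 0.0238), and neither passed after adjustment over the 20 tests (adjusted p = 0.106 and 0.119). *Gria4-203*, a shorter coding form of 433 codons whose last exon lies before the pore loop and holds neither exon, was 5.75 ± 0.75 TPM in WT hippocampus and 11.6 ± 1.18 TPM in WT neocortex.

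*Gria3* could not be divided in this way. Its coding flop transcripts, *Gria3-202* and *Gria3-209*, are annotated with 3′UTRs of 248 bases and 0 bases and reached at most 0.74 TPM, so flip came to at least 98.1% in every sample. Nearly all of the gene's level lay on *Gria3-201* (flip, 888 codons) and on *Gria3-206*, a transcript annotated for nonsense-mediated decay that holds both exons. *Gria3-206* is the only transcript in the annotation that joins the flop exon to the long 3′ end. How reads of the flop exon were shared among these transcripts was not tested.

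These 2 *Gria3* transcripts lay in opposite directions between genotypes in the hippocampus, and edgeR did not call them. *Gria3-206* was 16.2, 25.0, 27.8, 24.9 and 23.1 TPM in WT and 36.9, 28.1, 34.8, 40.3 and 31.4 TPM in null hippocampus, without overlap, as for 1.2% of transcripts. *Gria3-201* was 41.4, 34.7, 26.9, 39.2 and 37.2 TPM in WT and 19.1, 28.2, 28.4, 26.3 and 26.1 TPM in null hippocampus, with WT sample 3 inside the null range. Their sum was 59.3 ± 3.49 TPM in WT and 59.9 ± 4.75 TPM in null mice. In the neocortex *Gria3-206* was 37.3 ± 11.4 TPM in WT and 37.2 ± 6.84 TPM in null mice, and its WT samples spread from 23.1 to 49.0 TPM.

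Transcript usage, the level of a transcript relative to its gene, was tested with edgeR's diffSpliceDGE over all transcripts. It called 0 of 15 Gria transcripts for genotype in the hippocampus (0.0282% of 28419 transcripts) and 0 of 16 in the neocortex (0.0724% of 30389). Between tissues it called 0 of 16 in WT (0.139% of 29406) and 0 of 16 in null mice (0.164% of 30476). At an unadjusted p under 0.05 there were 2, 1, 1 and 3 in these comparisons (1.32, 1.86, 2.49 and 3.22% of transcripts). Limma's diffSplice called 2, 0, 0 and 2, and the share of all transcripts that it called is not given here. Both of limma's pairs were *Gria3-201* and *Gria3-206*, with adjusted p = 0.00666 and 0.00795 for genotype in the hippocampus. On simulated counts the edgeR usage test recovered few of the changes put in, so its counts of 0 say little.

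The level of each transcript was therefore also tested, a choice made after the data were seen. For genotype it called 0 of 15 in the hippocampus (0.0291% of 34338 transcripts), with 3 at an unadjusted p under 0.05 (4.62% of transcripts), and 0 of 16 in the neocortex (0.0249% of 36164), with 4 (6.26%). *Gria3-206* in the hippocampus had a log2 fold change of 0.55 ± 0.13 (SE, adjusted p = 0.714) and *Gria3-201* one of -0.49 ± 0.14 (adjusted p = 0.997). In the neocortex *Gria1-201* had one of 0.49 ± 0.13 (adjusted p = 0.555) and *Gria1-202* one of 0.27 ± 0.08 (adjusted p = 0.645).

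Between tissues 5 of 16 transcripts passed in WT (10.1% of 35272 transcripts) and 5 of 16 in null mice (6.73% of 36337). In each, 3 were higher in the hippocampus (5.28% of transcripts in WT, 3.51% in null mice) and 2 lower (4.82% and 3.23%). Higher in the hippocampus in WT were *Gria1-202* (1.77 ± 0.09, adjusted p = 2.89e-06), *Gria1-201* (1.57 ± 0.12, adjusted p = 2.62e-05) and *Gria2-201* (0.19 ± 0.05, adjusted p = 0.0378). Lower were *Gria4-203* (-0.96 ± 0.13, adjusted p = 0.00104) and *Gria4-204*, a flop transcript (-0.97 ± 0.19, adjusted p = 0.00844). In null mice *Gria1-202*, *Gria1-201* and *Gria2-201* again passed as higher, and *Gria4-203* and *Gria3-201* as lower. Without the libraries rich in choroid plexus markers the null calls of *Gria1-201* and *Gria2-201* ended (adjusted p = 0.0655 and 0.0513), as did that of *Gria2-201* in WT (adjusted p = 0.0935). The *Gria2-201* call in WT was lost without any 1 of 9 of the 10 samples (adjusted p between 0.0559 and 0.107).

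**Figure D5:**
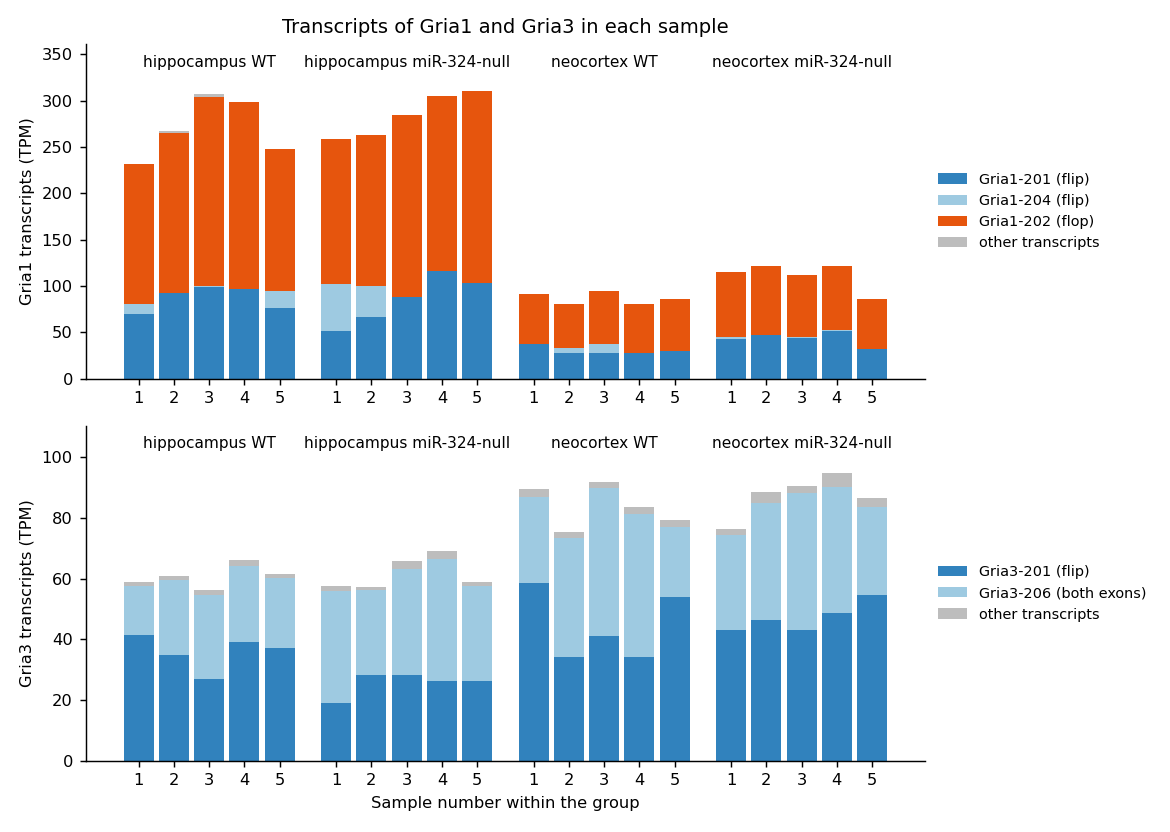
Level in TPM (vertical axes, from 0) of the transcripts of *Gria1* (top) and *Gria3* (bottom), stacked for each of the 20 samples. *Gria1-204* appears in a few samples only, up to 50.5 TPM, where *Gria1-201* is lower. *Gria3-206* is higher than *Gria3-201* in 4 of 5 null hippocampus samples but in 1 of 5 WT hippocampus samples.

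The proteins that carry, fold and anchor the subunits were taken as lists. Of 18 genes for auxiliary subunits and receptor assembly, all 18 were tested, and 7 were higher and 5 lower in WT hippocampus than in WT neocortex. Of all genes tested, 18.1% were higher and 18% lower. The largest changes among those that passed were in *Shisa6* (3.63 ± 0.14, adjusted p = 1.14e-09), which holds receptors at the synapse and limits their desensitisation, *Cnih2* (1.57 ± 0.07, adjusted p = 3.08e-09), a cornichon that helps subunits leave the endoplasmic reticulum, and *Cacng8* (1.07 ± 0.07, adjusted p = 6.02e-08), which encodes the hippocampal auxiliary subunit TARP gamma-8. The list's median log2 fold change was 0.09, beside -0.00077 over all genes tested. In null mice 6 were higher and 6 lower, beside 13.8% and 13.6% of all genes tested. The largest changes there were in *Shisa6* (2.91 ± 0.17), *Cnih2* (1.44 ± 0.10) and *Gsg1l* (-1.17 ± 0.22), an auxiliary subunit that reduces the current.

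Of 15 genes for synaptic scaffolds and trafficking, 6 were higher and 5 lower in WT hippocampus, and 5 and 5 in null hippocampus. Of all genes tested, 18.1% were higher and 18% lower in WT, and 13.8% and 13.6% in null mice. *Nptx2*, a secreted pentraxin that clusters receptors on interneurons, was lower in the hippocampus (-1.44 ± 0.09 in WT, adjusted p = 9.28e-08), as was *Grip2*, which binds the tail of GluA2 and GluA3 (-1.12 ± 0.13, adjusted p = 1.73e-05). *Dlg1*, which encodes the GluA1-binding scaffold SAP97, was also lower (-0.70 ± 0.06, adjusted p = 1.01e-06). The editing enzymes divided too. *Adarb1*, whose product edits the pore codon of *Gria2*, was lower in the hippocampus by a log2 fold change of -0.27 ± 0.05 in WT (adjusted p = 7.09e-04) and -0.35 ± 0.07 in null mice (adjusted p = 0.00221), *Adar* was also lower, and *Adarb2*, which encodes an ADAR without known editing activity, was higher (0.62 ± 0.07 in WT, adjusted p = 1.23e-05).

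For genotype, 0 of the 18, 15 and 3 genes of these lists passed in edgeR in either tissue (0.115% of genes in the hippocampus, 0.315% in the neocortex). In the hippocampus 2, 3 and 0 had an unadjusted p under 0.05 (11.1% of all genes tested) and DESeq2 called 0. In the neocortex 5, 3 and 1 had one (12.2% of all genes tested) and DESeq2 called 1, *Shisa6*. Over the auxiliary list the median log2 fold change came to -0.04 (hippocampus) and 0.08 (neocortex), beside 0.0012 and 0.0046 over all genes tested. The 5 auxiliary genes with an unadjusted p under 0.05 in the neocortex, picked after their values were seen, did not share a direction. *Cacng8* lay between 18.2 and 19.68 TPM in WT and between 22.6 and 24.1 TPM in null neocortex, without overlap, as for 1.75% of genes (log2 fold change 0.25 ± 0.05, adjusted p = 0.0881). *Shisa6* was 3.11 ± 0.53 TPM in WT and 5.55 ± 1.16 TPM in null neocortex (0.78 ± 0.20, adjusted p = 0.148 in edgeR and 0.0113 in DESeq2). *Cacng5* also had a higher mean in null mice (1.02 ± 0.33, adjusted p = 0.252), and *Cacng2* (-0.22 ± 0.08, adjusted p = 0.278) and *Cacng3* (-0.16 ± 0.06, adjusted p = 0.332) had lower ones.

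NMDA and kainate receptors, other ionotropic glutamate receptors, are given beside the AMPA receptor subunits. NMDA receptor subunits, the slower calcium-permeable receptors (7 genes, 6 tested), summed to 381 ± 22.2 TPM in WT hippocampus and 383 ± 19.5 TPM in WT neocortex. Of them 3 passed as higher in WT hippocampus (18.1% of all genes tested), *Grin2a* (0.60 ± 0.06, adjusted p = 2.28e-06), *Grin2b* (0.39 ± 0.06, adjusted p = 1.47e-04) and *Grin2c* (0.20 ± 0.05, adjusted p = 0.00817). Kainate receptor subunits (5 genes) summed to 179 ± 9.71 and 156 ± 4.29 TPM, with 3 higher, led by *Grik4* (1.13 ± 0.11, adjusted p = 4.28e-06), and *Grik3* lower (-0.93 ± 0.09, adjusted p = 4.65e-06), where 18% of all genes tested were lower. In null mice 1 of the 6 NMDA receptor genes passed, as higher. Of the kainate receptor genes 3 passed as higher and 1 as lower in null mice, beside 13.8% and 13.6% of all genes tested. For genotype, 0 of the 6 and 5 tested genes of these families passed in edgeR in either tissue (0.115% of genes in the hippocampus, 0.315% in the neocortex). In the hippocampus 2 and 1 had an unadjusted p under 0.05 (11.1% of all genes tested) and DESeq2 called 0. In the neocortex 2 and 1 had one (12.2% of all genes tested), where DESeq2 called 1, *Grin2b* (0.32, adjusted p = 0.0317).

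The genes most like each member were listed by Pearson's r of log2 CPM over the 20 samples, among 15391 genes, as a description. All 20 points share the tissue difference. Nearest to *Gria1* were *Nr3c2*, *Gabra5* and *Il16* (r = 0.993, 0.992 and 0.991), and nearest to *Gria2* were *Dhx36*, *Ints3* and *Slitrk3* (r = 0.929, 0.901 and 0.881). *Gria3* had *Pcdh7*, *9330182L06Rik* and *Erfe* (r = 0.980, 0.979 and 0.979), and *Gria4* had *Cdh18*, *Gabra3* and *Dpp10* (r = 0.982, 0.978 and 0.978). Between the members, r was 0.96 for *Gria3* with *Gria4* and -0.95 for *Gria1* with *Gria3*.

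With the mean of each group taken away, other genes came first. *Gria1* then lay nearest to *Fat4*, *Lamb1* and *Slc29a4* (r = 0.958, 0.912 and 0.897), and *Gria2* to *Ryr2*, *Stxbp5* and *Cnot1* (r = 0.911, 0.904 and 0.901). *Gria3* lay nearest to *4931428F04Rik*, *Pcnx4* and *Chd5* (r = 0.852, 0.834 and 0.797), and *Gria4* to *Fnbp1l*, *Gm16485* and *Dpp10* (r = 0.882, 0.872 and 0.872). *Dpp10* was the one gene named for the same member by both measures. Between members, *Gria3* with *Gria4* kept r = 0.62, and *Gria1* with *Gria3* fell to -0.14.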

How the data were processed

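Libraries of stranded polyadenylated RNA were sequenced by the authors and pseudo-aligned with kallisto to the mouse GRCm38 transcriptome of release 92. The kallisto version is not given in the sources used here. The deposited tables hold, for each transcript, an estimated count, its TPM, and its length and effective length, all computed by the authors' kallisto run. Of 115270 transcripts, 113580 were matched by identifier to GENCODE M21, and the 1690 others, at most 0.556% of a library's counts, were left out.

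Estimated counts were summed per gene and rounded, and TPM was summed without rounding. Genes were tested with edgeR 4.0.16 (R 4.3.3): edgeR's default filter, TMM scaling and the quasi-likelihood test, in a fit of the 2 groups compared, or of all 20 samples for the interaction, with Benjamini-Hochberg adjustment at 0.05. Usage was tested with diffSpliceDGE, and shares with two-sided exact permutation tests (Python 3.11.15, numpy 2.4.6), adjusted over 20 tests. Log2 CPM used a prior count of 2. Alternatives were DESeq2 1.42.0, limma 3.58.1, other scalings, filters, offsets, a replicate block and each replicate left out. The main edgeR tests of genes, transcript usage and transcript level were tested on simulated counts, for the tissue and genotype comparisons only.

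The members and gene lists were chosen with earlier results of these data known. Named genes are the members, their transcripts, up to 3 called genes of each list with the largest change, and the 3 genes most like each member. One listed gene group is not reported here. The labels do not say whether tissues with the same number came from 1 mouse, so p-values measure the spread between these samples. Replicates of a group differed by more than sampling noise. Fits without 3 libraries with over 500 CPM of summed choroid plexus markers were added after the data were seen.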

Additional observations from a re-analysis of the deposited data

Results flagged for a closer look

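The 4 genes' TPM, the *Gria2* share and the 4 flip shares were screened for a sample far from the others of its group, over 36 sets of 5 samples, and 2 stood out. Chance alone marks about 1 in 20 such sets. The first was *Gria1* in null neocortex, where sample 5 was at 86.5 TPM beside a group median of 114.9 TPM. The second was the flip share of *Gria4* in null neocortex, where sample 2, one of the libraries rich in choroid plexus markers, was at 34.2% beside a median of 28.1%.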

How the results depend on the processing

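The calls of *Gria1*, *Gria3* and *Gria4* between tissues kept their direction and passed under every alternative run, whichever sample was left out. In the neocortex the count of members called for genotype was 0 and became 1 (*Gria1*) with DESeq2, with DESeq2 and transcript length as an offset (log2 fold change 0.31, adjusted p = 0.0429) and without sample 5 of null neocortex, so that leaving out 1 sample at a time gave 0 to 1. The other alternatives left *Gria1* in the neocortex with adjusted p of up to 0.348. For *Gria2*, 2 further settings ended the null tissue call, no filter on low counts (adjusted p = 0.0565) and the length offset in DESeq2 (0.182). Limma's diffSplice called 2 member transcripts for usage in place of 0 for genotype in the hippocampus and for tissue in null mice. The shares of all transcripts that limma called, and of all genes that DESeq2 called, are not given here. For tissue in null mice the count of transcripts called for level fell from 5 to 3 without the libraries rich in choroid plexus markers, where *Gria1-201* and *Gria2-201* came to adjusted p = 0.0655 and 0.0513.

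Small differences that had not passed changed sign. Without the libraries rich in choroid plexus markers, *Gria3* came to a log2 fold change of -0.00065 for genotype in the hippocampus and -0.0025 in the interaction. With 1 sample left out, *Gria3* ranged from -0.016 to 0.031 in the hippocampus, from -0.011 to 0.033 in the neocortex and from -0.026 to 0.026 in the interaction. The genotype difference of the *Gria2* share in the neocortex ranged from -0.719 to 0.338 percentage points, the last without sample 1 of null neocortex. Flip share differences between genotypes ranged from -2.17 to 0.806 points for *Gria2*, -0.453 to 0.118 for *Gria3* and -3.72 to 1.58 for *Gria4* in the hippocampus, and from 0 to 1.35e-06 for *Gria3* and -2.64 to 0.198 for *Gria4* in the neocortex.

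Replicate numbers were entered as a block. The numbers were not taken as pairs, since in no comparison did the deviations of every same-numbered pair correlate above 0.1. The correlations lay between -0.172 and 0.177 over all comparisons and between 0.0165 and 0.177, all positive, for tissue in null mice, where pairing cannot be dismissed. Each sample correlated best with its own number in 1 of 10 (hippocampus), 2 of 10 (neocortex), 5 of 10 (tissue, WT) and 7 of 10 (tissue, null). With the block the genes called went from 17 to 4, from 47 to 30, from 5378 to 5044 and from 4125 to 4041 in these comparisons and from 3 to 0 in the interaction, while 0, 0, 4, 4 and 0 members were called with and without it. The block lowered the transcripts called for level in null mice from 5 to 3, and *Gria2-201* in WT also lost its call (adjusted p = 0.162). For the shares, a sign-flip test over 5 pairs cannot go below p = 0.0625 (exact test). How depth bears on these calls was not tested.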

Other observations

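*Gria2* was the only member with a sizeable part of its level on transcripts annotated as retaining an intron. *Gria2-204*, *Gria2-205* and *Gria2-206* together made up 12.68 ± 2.09% of its TPM in WT hippocampus, 14.7 ± 3.04% in null hippocampus, 16.3 ± 2.36% in WT neocortex and 17.98 ± 1.52% in null neocortex (SD, n = 5). Most of this lay on *Gria2-206*, whose annotated 3′ end lies before the flop exon, at 15.7 ± 4.90 TPM in WT hippocampus and 19.5 ± 3.65 TPM in WT neocortex. For *Gria3* the share of retained-intron transcripts lay between 1.53% and 4.75% in the 20 samples, and for *Gria1* and *Gria4* no such transcript is annotated.

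The flop transcripts of *Gria4*, *Gria4-201* and *Gria4-204*, were split unevenly between samples in the hippocampus. *Gria4-201* made up between 5.39e-06% and 40.6% of their sum in WT and between 5.81e-07% and 65.8% in null hippocampus, and between 11.6% and 26.5% in WT neocortex. The sum itself was 9.58 ± 1.75 TPM in WT hippocampus and 20.5 ± 1.74 TPM in WT neocortex.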
